A study of Mus musculus with 10 samples.

Results

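Semaphorins of classes 3 to 7 with their plexin and neuropilin receptors, ephrins with Eph receptors, Slits with Robos, and netrins with Unc5 receptors are the main ligands and receptors of axon guidance. Their genes were selected by symbol from the protein-coding genes of the GENCODE M21 mouse annotation on chromosomes 1 to 19, which gave 65 of 20807 genes, 34 of them ligand genes and 31 receptor genes. The rule uses no measured value, and Efnb1, Plxna3 and Plxnb3 were left out because they lie on chromosome X. The question was where RBPJ, the DNA-binding factor of the Notch pathway, was bound around these genes in brain pericytes.

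ChIP-seq (chromatin immunoprecipitation followed by sequencing) had been done on mouse RD1 cells, labelled as brain pericytes and grown without treatment on collagen I in pericyte medium. The 10 samples were input chromatin and immunoprecipitates of RBPJ, H3K4me1, H3K4me3 and histone H3, with 2 replicates of each. The 2 RBPJ samples had peak positions, and the other 8 were not analysed here. The methods of the study speak of cultured primary brain pericytes, while the labels give the name RD1, and the files do not say how these names relate. A list of peaks holds no expression values, so the labelled cell type could not be checked with pericyte markers, and it is not known from these files which of the 65 genes the cells express.

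In the absence of a Notch signal, RBPJ sits on DNA with corepressors, and the cleaved intracellular domain of Notch turns it into an activator at the same sites. Guidance ligands are secreted or held on cell surfaces, and their receptors attract or repel the growing tip of an axon by changing its cytoskeleton. Blood vessels use the same families: ephrin-B2 marks arteries and mural cells, EphB4 marks veins, neuropilin 1 is also a receptor for vascular endothelial growth factor, and plexin D1 guides vessel sprouts.

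For 22 members at least 1 peak had the RBPJ motif TGGGAA, in either orientation, in its middle 200 bp, and for 10 members the longer form GTGGGAA. Over all autosomal protein-coding genes the shares were 18.5% and 7.69%, beside shorter stretches of DNA assigned to each gene, and per peak TGGGAA was in 29.7% of members' peaks and 25.7% of other autosomal peaks. The following windows are the central 200 bases of 8 peaks that hold GTGGGAA, at most 1 per gene and narrowest peak first, outside untranslated regions. They show the motif in its setting and are not typical of the 101 peaks around members, of which 11 had GTGGGAA in the central window. The windows are given on the plus strand of GRCm38 from 5′ to 3′, and those of Epha5, Efnb2 and Sema6d lie 424, 319 and 629 kb from the 5′ end of the gene, past its other end. Capitals mark TGGGAA or GTGGGAA, which read TTCCCA or TTCCCAC where the motif is on the minus strand.
Epha5 (chr5:83993721-83993920): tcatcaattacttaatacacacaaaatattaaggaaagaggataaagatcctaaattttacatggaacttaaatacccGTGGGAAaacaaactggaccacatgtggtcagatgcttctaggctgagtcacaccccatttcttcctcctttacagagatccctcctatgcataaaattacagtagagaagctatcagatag
Ephb3 (chr16:21213826-21214025): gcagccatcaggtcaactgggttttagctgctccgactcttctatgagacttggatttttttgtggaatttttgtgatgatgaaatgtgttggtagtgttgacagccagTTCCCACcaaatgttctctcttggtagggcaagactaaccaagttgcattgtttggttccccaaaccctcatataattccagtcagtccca
Nrp1 (chr8:128465452-128465651): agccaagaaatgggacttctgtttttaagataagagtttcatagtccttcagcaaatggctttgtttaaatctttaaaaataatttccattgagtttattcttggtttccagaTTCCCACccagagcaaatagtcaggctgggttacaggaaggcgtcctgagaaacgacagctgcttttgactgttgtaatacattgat
Sema3a (chr5:13387739-13387938): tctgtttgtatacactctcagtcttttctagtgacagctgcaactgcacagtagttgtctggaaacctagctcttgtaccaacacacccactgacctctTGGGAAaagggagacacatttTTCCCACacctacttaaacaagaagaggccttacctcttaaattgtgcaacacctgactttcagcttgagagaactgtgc
Plxnd1 (chr6:115991688-115991887): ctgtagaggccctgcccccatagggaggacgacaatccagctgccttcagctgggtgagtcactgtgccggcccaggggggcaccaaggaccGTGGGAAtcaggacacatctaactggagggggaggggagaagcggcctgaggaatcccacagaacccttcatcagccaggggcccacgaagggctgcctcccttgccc
Efna5 (chr17:62757068-62757267): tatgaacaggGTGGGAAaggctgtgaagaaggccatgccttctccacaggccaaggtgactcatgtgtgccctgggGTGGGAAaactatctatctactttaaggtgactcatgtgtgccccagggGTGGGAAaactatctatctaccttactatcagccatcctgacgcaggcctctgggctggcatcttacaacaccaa
Efnb2 (chr8:8342081-8342280): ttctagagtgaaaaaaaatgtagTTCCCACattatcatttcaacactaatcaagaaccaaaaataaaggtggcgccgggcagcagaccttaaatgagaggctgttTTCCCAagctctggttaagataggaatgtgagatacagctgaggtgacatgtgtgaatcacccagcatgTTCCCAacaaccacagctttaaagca
Sema6d (chr2:124719205-124719404): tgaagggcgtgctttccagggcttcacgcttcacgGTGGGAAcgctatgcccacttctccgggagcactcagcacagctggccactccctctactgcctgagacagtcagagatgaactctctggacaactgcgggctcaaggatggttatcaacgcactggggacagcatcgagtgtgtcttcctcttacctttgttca

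In the Efna5 window, GTGGGAA occurred 3 times on the same strand, at bases 11 to 17, 77 to 83 and 126 to 132, and the AP-1 motif TGANTCA occurred 2 times. Both TGANTCA and the last 2 GTGGGAA lie in 2 near-identical adjacent copies of the same stretch, so they are not independent occurrences. The Epha5 peak, 161 bp wide, is shorter than its window, and its motif lies inside the peak. The Efnb2 window held TGGGAA 3 times on the minus strand and TGANTCA once. The Sema3a window had 2 motifs facing each other, 15 bases apart. Each of the other 5 windows held a single TGGGAA, and those of Epha5 and Plxnd1 also held TGANTCA. The windows of Ephb3, Nrp1, Sema3a, Plxnd1 and Efna5 are intronic in the gene they are named for, whereas those of Epha5, Efnb2 and Sema6d lie outside protein-coding genes. A match to a motif is a description of the sequence and does not show which base RBPJ contacted.

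Some facing motifs are known as paired sites, at which Notch complexes can dimerise. Pairs were sought here as TGAGAA or TGGGAA followed after 11 to 21 bases by TTCCCA or TTCTCA. Whether Notch complexes dimerise at pairs with these gaps was not tested. Such pairs were present in 6 of 101 peaks around members (5.94%, 95% exact binomial interval 2.21 to 12.5), compared with 2.60% of 10846 other autosomal peaks. Among proximal peaks, centred within 1 kb of a transcription start, 2 of 18 had a pair (11.1%, 1.38 to 34.7) against 1.24%, and among the distal ones the shares were 4.82% (1.33 to 11.9) and 3.96%. The gap was 14 bases in 4 of the 6 pairs (Epha3, Epha5, Ephb2 and Plxna1), 15 bases in Sema3a and 20 bases in a peak of Plxnb2. Pairs were sought over whole peaks, so a wider peak had more room for one. The Plxnb2 pair lay 1723 bp from the middle of its peak, in an untranslated region of Dennd6b. In the other autosomal peaks 94 of 292 pairs (32.2%) had a gap of 14 bases, and the next most frequent gap, 15 bases, was found in 34. The 4 pairs with the 14-base gap, chosen for display after their values were seen, are shown on the plus strand with 10 bases to either side and the motifs in capitals.
Epha3 (chr16:64134606-64134651): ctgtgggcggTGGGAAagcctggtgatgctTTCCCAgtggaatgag
Epha5 (chr5:84347591-84347636): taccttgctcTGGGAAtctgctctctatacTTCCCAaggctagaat
Ephb2 (chr4:136836522-136836567): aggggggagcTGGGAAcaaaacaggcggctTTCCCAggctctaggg
Plxna1 (chr6:89007626-89007671): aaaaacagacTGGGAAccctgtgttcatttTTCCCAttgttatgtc

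All 4 pairs had TGGGAA in both arms. The Epha5 pair was centred 4 bp and the Plxna1 pair 23 bp from the middle of their peaks, whereas the pairs of Epha3 and Ephb2 lay 496 and 472 bp from it. The Epha5 pair is in an intron of that gene, and the other 3 are outside protein-coding genes.

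Promoter peaks with a central TGGGAA were found for 4 members. Per peak, TGGGAA was in 4 of 18 proximal peaks around members (22.2%) and in 15.99% of other autosomal proximal peaks. The sites of these 4 members were also chosen for display after their values were seen. They are shown with 12 bases to either side, on the plus strand, with the motif in capitals.
Epha7 (chr4:28813026-28813055): gccccccggccgTGGGAAtcgccgcctagc
Ephb6 (chr6:41604908-41604937): gggaccttttccTTCCCAgacgcttgcact
Robo1 (chr16:72663259-72663288): cctgctcgctctTTCCCAccaacccggggc
Sema3a (chr5:13399364-13399393): tctagtgagtgtTGGGAAaacctgtccgcg

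The Epha7 site lay 90 bp and the Ephb6 site 559 bp upstream of a transcription start of the gene, and neither was inside a protein-coding gene. In Robo1 and Sema3a the sites were 125 and 55 bp downstream of a start, in an untranslated region of the transcript.

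The 2 deposited RBPJ peak files were identical in every byte and were counted as 1 list of 11094 peaks, 10947 of them on chromosomes 1 to 19. No spread between replicates can be given, no test was done, and the intervals cover counting error only. Peak positions carry no height, so strong and weak sites cannot be told apart, and a gene without a listed peak cannot be read as unbound. Chromosomes 4 and 7 had 1.04 and 1.03 peaks per Mb, while the other autosomes had 3.27 to 7.66, and 7 members lie on these 2 chromosomes.

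Each gene was given a territory, which is the gene body plus a domain around its transcription start (5 kb before it and 1 kb after it) that was extended to the neighbouring genes by at most 1 Mb. A peak was assigned by its centre. In total, 39 of 65 members (60%) had a peak in their territory, while 48.4% of all autosomal protein-coding genes did. Outside chromosomes 4 and 7 the count was 36 of 58 (62.1%) against 55.3% of all genes, and on chromosomes 4 and 7 it was 3 of 7 (Epha7, Ephb2 and Sema4b) against 411 of 3350.

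Territories of members were long, with a median of 247 kb compared with 90.7 kb for all genes, and a larger share of genes had a peak where territories were longer. Between the members' own quartiles of territory length, 73.5 and 1028 kb, 21 of 33 members (63.6%) and 57.3% of all genes had a peak. If each member had the share of its length class, 36.2 members would have a peak, compared with the 39 counted. The longest class held 26 of the 65 members, and 21 of these had a peak.

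**Figure D1:**
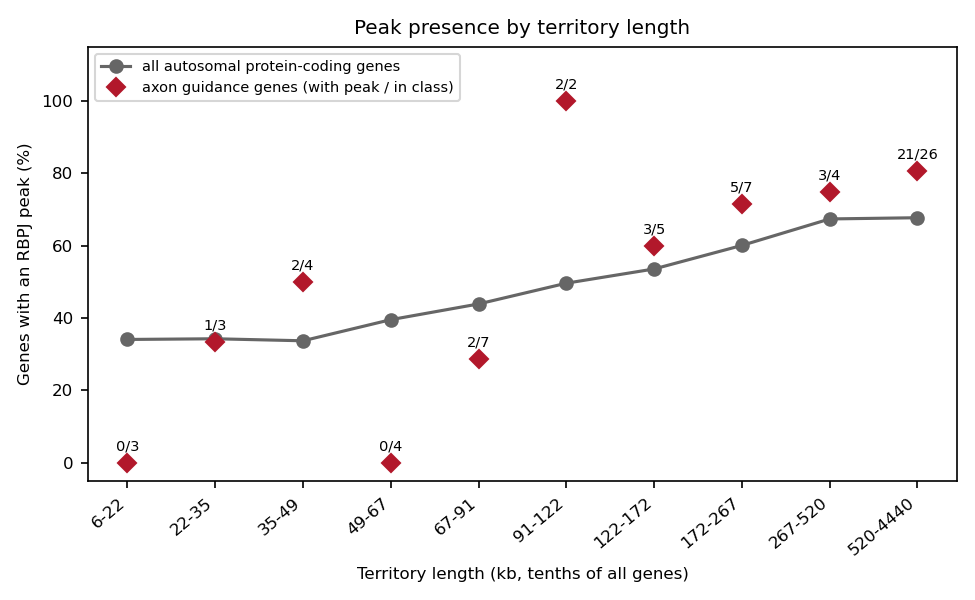
Percent of genes with an RBPJ peak (y axis) in 10 classes of territory length in kb (x axis), for all autosomal protein-coding genes (grey) and for the axon guidance genes (red, with the number having a peak over the number in the class). The grey line rises from 34.1% in the shortest class to 67.8% in the longest, and 21 of 26 members of the longest class had a peak.

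A promoter peak, centred within 1 kb of a start of the gene's own protein-coding transcripts, was present in 16 of 65 members (24.6%) and in 28.8% of all autosomal genes. With distance taken from the nearest peak edge instead of the centre, 22 members had one. The share of all genes by that measure is not given here. Peaks inside the gene body were present in 24 members (36.9%) and in 26.3% of all genes, beside median gene lengths of 56.6 and 17.6 kb. At least 5 peaks were counted for 7 members, and for 2.3% of all genes. This count was not adjusted for territory length, with medians of 247 kb for members and 90.7 kb for all genes. Receptor genes had a promoter peak in 11 of 31 cases and ligand genes in 5 of 34, beside 28.8% of all genes. Of these 11 receptors, 7 were Eph receptors. A peak anywhere in the territory was found for 20 receptors and 19 ligands, beside 48.4% of all genes. Median territories were 633 kb for receptors and 149 kb for ligands, and the differences between receptors and ligands were not tested.

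**Figure D2:**
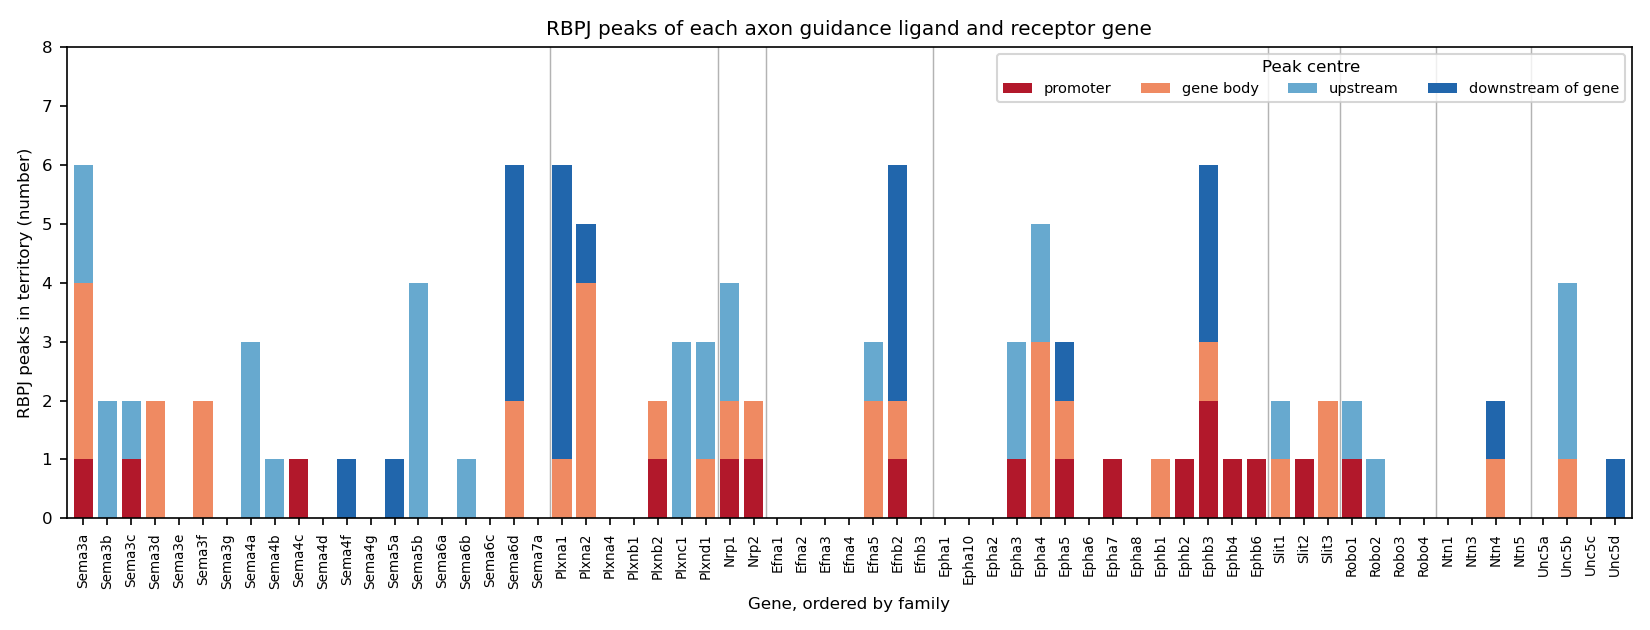
Number of RBPJ peaks in the territory of each of the 65 genes (y axis), ordered by family along the x axis and coloured by the place of the peak centre. There are 5 genes that reach 6 peaks (Sema3a, Sema6d, Plxna1, Efnb2 and Ephb3), 26 genes have none, and 7 of the 14 Eph receptors have a promoter peak.

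The semaphorins, ligands that mostly repel axons and in some cases guide vessels, had a peak in 13 of 20 genes (65%) and a promoter peak in 3 (15%), compared with 48.4% and 28.8% of all genes. With the share of all genes in its class of territory length for each gene, 10.8 of the 20 would have a peak. Among the secreted class 3, peaks were listed for Sema3a, Sema3b, Sema3c, Sema3d and Sema3f but for neither Sema3e nor Sema3g. Sema3a, the classical collapsing factor of growth cones, had 6 peaks. Of these, 4 were in the gene, and 1 of the 4 was centred 18 bp from an alternative start that lies 274 kb inside the annotated gene. The remaining pair, 622 and 618 kb upstream, are in introns of Sema3d, 120 and 124 kb from its start, so they were counted for both genes and are nearer to Sema3d.

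Sema3c, which guides neural crest cells and is needed for the outflow tract of the heart, had a promoter peak 221 bp from a start and a second peak 2.44 kb upstream. For Sema3f, a repellent that binds neuropilin 2, both peaks were intronic, and the closer one was centred 1035 bp from a start, just past the limit for a promoter peak. Sema3b had peaks 3.70 and 10.6 kb upstream, the latter within a coding exon of Gnai2.

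Of the membrane-bound semaphorins, Sema4c, a ligand of plexin B2, had a single peak 212 bp from a start. Sema4b had 1 peak 5.02 kb upstream and Sema4f 1 peak 30.5 kb from its start, past the end of the gene. The 3 peaks assigned to Sema4a all lay in Lmna, the neighbouring gene for lamin A/C, and 1 of them was 10 bp from an Lmna start. Sema5b had 4 peaks 15.5 to 35.8 kb upstream, 1.73 to 4.05 kb wide, of which 2 were closer to the start of Pdia5. The single Sema5a peak was 534 kb from its start and nearer to Sdc2.

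Sema6d, a transmembrane ligand of plexin A1, had 6 peaks. In the gene were 2 of these, 266 and 519 kb from its 5′ end, the second 1108 bp from an alternative start. The other 4 were 629 to 769 kb from the 5′ end, past the end of the gene, and had Sema6d as nearest start. Sema6b had 1 peak centred 1.65 kb upstream, which was 3.36 kb wide and covered the gene's 5′ end. No peak was listed for Sema4d, Sema4g, Sema6a, Sema6c or Sema7a.

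Plexins are the signalling receptors of semaphorins, and 5 of 7 had a peak, where the length classes would give 4.09 and 48.4% of all genes had one. A promoter peak was present in 1 of 7, compared with 28.8% of all genes. Plxna1 had 6 peaks, but only the intronic one, 17.5 kb from the gene's 5′ end, had Plxna1 as nearest start. The other 5 spread over 275 to 438 kb from that end, beyond the gene, and were nearer to Tpra1. Plxna2 had 4 intronic peaks at 2.98, 34.0, 42.5 and 57.7 kb and another peak 262 kb from its 5′ end that was nearer to Cd34.

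The promoter peak was that of Plxnb2, 3.54 kb wide and centred 57 bp from the start, and it had a second, intronic peak. Plxnd1, the receptor of Sema3e in vessels, had an intronic peak at 3.22 kb and an upstream peak at 11.8 kb, both with a central GTGGGAA. A further Plxnd1 peak, 27.2 kb upstream, fell in a coding exon of Tmcc1. Plxnc1, the receptor of Sema7a, had 3 peaks 46.8, 226 and 358 kb upstream, the last 2 nearer to Cradd. Plxna4 and Plxnb1 had none.

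Neuropilins bind class 3 semaphorins and hand the signal to plexins, and both genes had a promoter peak, which 28.8% of all genes had. In Nrp1 it was 6601 bp wide and centred 950 bp from a start, the promoter peak closest to the 1 kb limit. Nrp1 also had an intronic peak at 107 kb and peaks 139 and 508 kb upstream, of which the last was nearer to Pard3. In Nrp2 the promoter peak was centred 4 bp from the start, and a second peak lay in an intron 18.7 kb downstream.

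**Figure D3:**
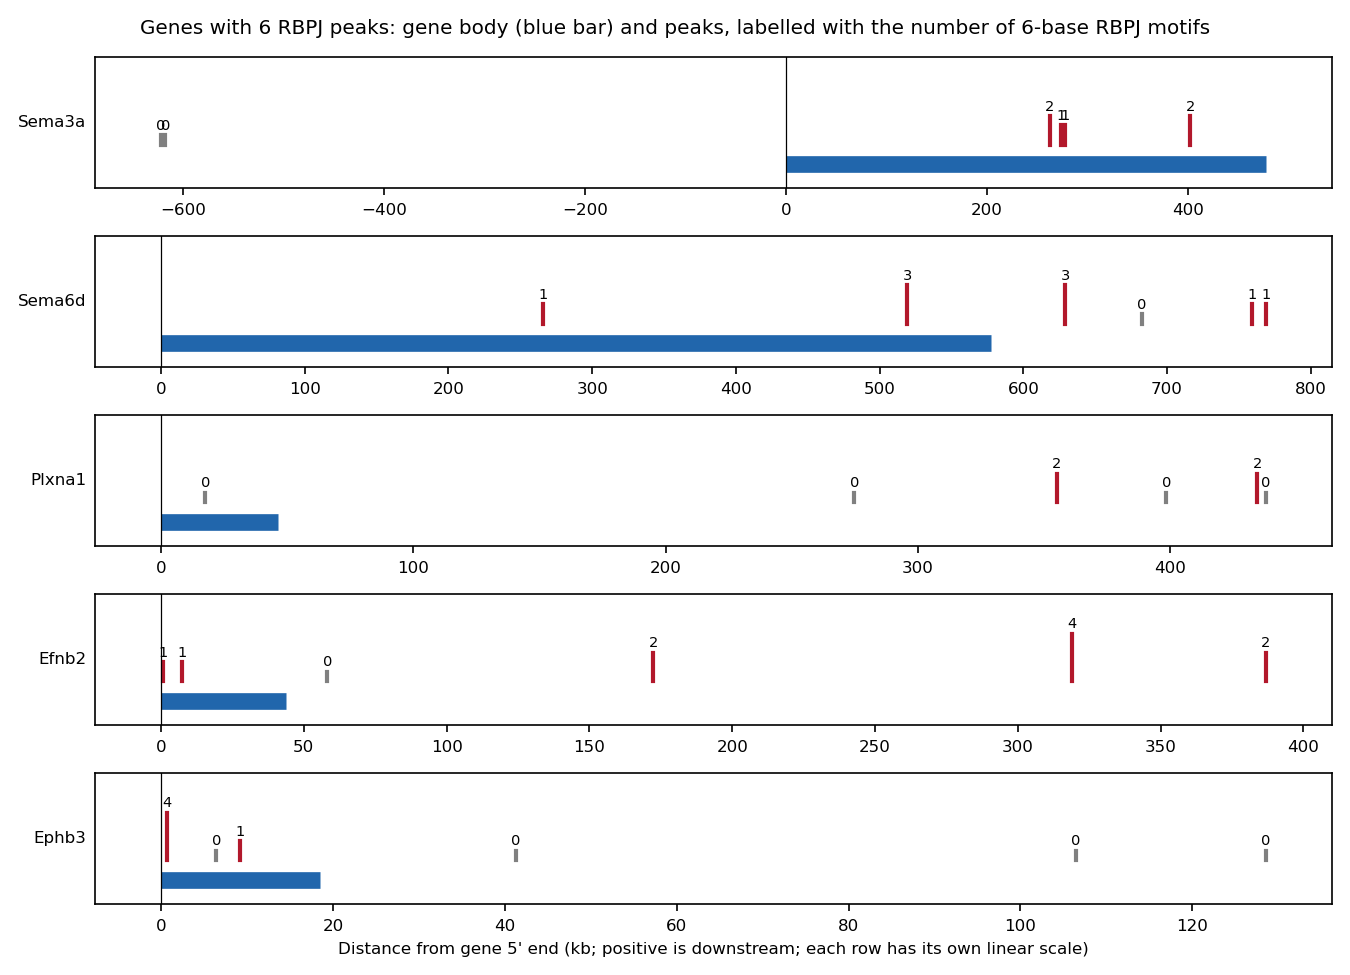
Peaks of the 5 genes with 6 RBPJ peaks, drawn at their distance from the gene's 5′ end in kb (x axis, linear, with its own scale in each row). Blue bars are gene bodies, and each vertical mark is a peak labelled with its number of TGGGAA motifs over the whole peak (red where there is at least 1). The 5 far peaks of Plxna1 and the 4 of Sema6d lie past the end of the gene, and the Efnb2 peak at 319 kb has 4 motifs.

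Ephrins are membrane-bound ligands, and 2 of 7 genes had a peak, 1 of them at the promoter. All genes had a peak in 48.4% and a promoter peak in 28.8% of cases, and the length classes would give 3.16 of 7 ephrin genes with a peak. Efnb2, the arterial ephrin and a known Notch target in endothelium, had 6. Its promoter peak was 2.04 kb wide and centred 634 bp from the start, in a coding exon, and a second peak was intronic at 7.45 kb. The other 4 lay 58.2, 172, 319 and 387 kb from the start, past the end of the gene. For these 6 peaks the nearest start was Efnb2 and no other gene's territory was shared. A central TGGGAA was present in the peaks at 7.45, 319 and 387 kb.

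Efna5, a repellent ligand in the visual map, had 2 intronic peaks at 124 and 194 kb and a peak 1.81 kb upstream that was 2.66 kb wide. Efna1, Efna2, Efna3, Efna4 and Efnb3 had no peak. Their territories were 21.03 to 50.9 kb long, compared with 1618 kb for Efna5 and 1028 kb for Efnb2.

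Eph receptors, tyrosine kinases that ephrins activate on contact, had a peak in 9 of 14 genes (64.3%) and a promoter peak in 7 (50%). All 5 EphB genes had a peak and 4 had it at the promoter. In the EphA genes it was 4 of 9, with 3 at the promoter. Over all genes the shares were 48.4% with a peak and 28.8% with a promoter peak. With the share of its length class for each gene, 2.91 of the 5 EphB genes (58.2%) and 5.19 of the 9 EphA genes (57.7%) would have a peak. Of the EphA genes without a peak, 3 of 5 (Epha2, Epha8 and Epha10) are on chromosome 4. The difference between EphA and EphB genes was not tested. The promoter peaks of Ephb4, Ephb2 and Ephb6 were centred 70, 84 and 552 bp upstream of the start, and each was the only peak of its gene. Ephb4, the venous partner of ephrin-B2, had 2 TGGGAA motifs in its peak of 1101 bp, although none in the central 200 bp. Ephb2 and Epha7 also lie on chromosome 4, where peaks were few.

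Ephb3, which acts with Ephb2 in midline crossing of axons, had 6 peaks. One was centred 739 bp from the main start, 2.51 kb wide and with 4 TGGGAA motifs, and another 100 bp from an alternative start. A narrow intronic peak at 9.17 kb held the GTGGGAA shown above. The remaining 3 were 41.3, 106 and 129 kb from the 5′ end, past the gene, and contained no TGGGAA, and the farthest was nearer to Vps8. Ephb1 had a single intronic peak 350 kb from its start, nearer to 9630041A04Rik.

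Epha3 had a promoter peak 76 bp from its 5′ end and upstream peaks at 8.35 and 271 kb, the last with the facing motifs shown above. Epha5 had a promoter peak 14 bp from a start, an intronic peak at 69.8 kb with the facing motifs shown above, and a peak at 424 kb past the end of the gene. Epha7 had its only peak at the promoter, 68 bp upstream. Epha4, a receptor for both ephrin classes, had 5 peaks, with 3 in introns at 19.2, 47.5 and 53.4 kb and 2 upstream at 1224 and 21002 bp. Epha1, Epha2, Epha6, Epha8 and Epha10 had none.

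Slits are secreted repellents, and all 3 genes had a peak, where the length classes would give 1.96. In Slit2 it was 912 bp wide and centred 176 bp from a start. Slit3 had 2 intronic peaks at 160 and 287 kb, and Slit1 had an intronic peak at 72.9 kb and another 52.9 kb upstream, in an intron of Arhgap19 and nearer to its start. Their Robo receptors had a peak in 2 of 4 genes, where the length classes would give 2.19. Over all genes the share was 48.4%. Robo1 had a promoter peak 199 bp from an alternative start, 355 kb inside the annotated gene, and a peak 363 kb upstream. Robo2 had 1 peak 447 kb upstream. Robo3 and the endothelial Robo4 had none.

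Netrins attract or repel axons according to the receptor. Only Ntn4, a basement membrane netrin, had peaks, at 12.8 kb in an intron and at 137 kb beyond the gene and nearer to Usp44, while Ntn1, Ntn3 and Ntn5 had none. The count of 1 in 4 netrin genes stands beside 1.96 from the length classes, and that of 2 in 4 Unc5 genes beside 2.63, with 48.4% over all genes. Of the Unc5 receptors, which mediate repulsion by netrins, Unc5b had 4 peaks. One was intronic at 15.6 kb, and 3 were upstream at 1.44, 103 and 249 kb, the farthest nearer to Pcbd1. The peak centred at 1.44 kb was 4.33 kb wide with 5 TGGGAA motifs, and it covered the gene's 5′ end. Unc5d had 1 peak 676 kb from its start, and Unc5a and Unc5c had none.

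**Figure D4:**
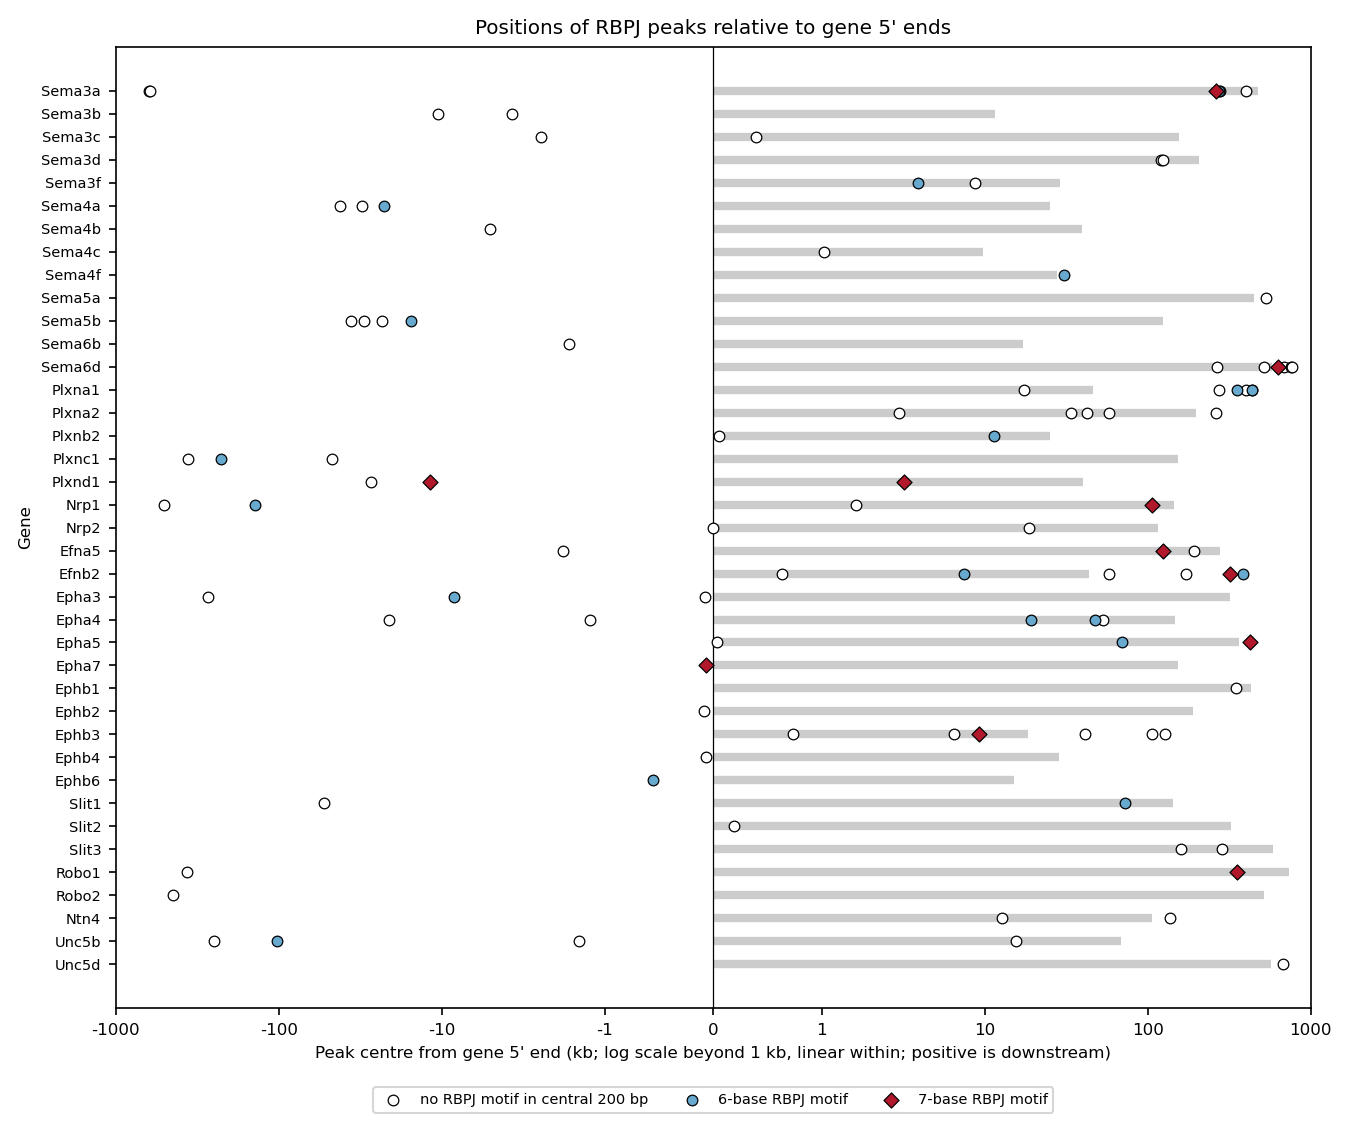
Distance of each peak centre from the gene's 5′ end in kb (x axis, linear within 1 kb and logarithmic beyond, positive downstream) for the 39 genes with a peak. Grey bars show gene bodies, open circles peaks without TGGGAA in the central 200 bp, blue circles those with TGGGAA and red diamonds those with GTGGGAA. Peaks lie from 4 bp (Nrp2) to 769 kb (Sema6d) from the gene's 5′ end.

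In all, 101 different peaks, 0.923% of autosomal peaks, fell in member territories, which cover 1.65% of known autosomal sequence. The density was 2.55 peaks per Mb (95% exact Poisson interval 2.08 to 3.10), compared with 4.57 over chromosomes 1 to 19. With the extension limited to 100 kb it was 4.72 per Mb for members and 6.16 for all genes. Of the 101 peaks, 38 were centred in introns, 8 in untranslated regions, 4 in coding exons and 51 outside protein-coding genes.

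The peaks were mostly far from transcription starts. Only 18 of 101 (17.8%, interval 10.9 to 26.7) were proximal, within 1 kb of a start of any protein-coding gene, compared with 49.9% of the other autosomal peaks. Among genes of the longest territory class the shares were 14.5% of 62 peaks (6.86 to 25.8) for members and 27.6% of 2735 peaks for all genes. The median distance to the nearest start was 20245 bp for members' peaks and 1015 bp for other peaks. One of the 18 proximal peaks was at the Lmna start, and the others were at a member's start.

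Which gene a distant peak acts on cannot be read from its position. For 80 of the 101 peaks the nearest start was that of a member, but 67 also lay in the territory of a gene outside the families. Ephb1, Sema4a and Sema5a had only peaks that were nearer to another gene. With peaks limited to those nearest to the member itself, 36 members had a peak. The share of all genes under the same limit is not given here.

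TGGGAA was found in the central 200 bp of 30 of 101 peaks (29.7%, interval 21.02 to 39.61), and in 25.7% of other autosomal peaks. In windows 5 kb to either side of the same peaks the share was 16.8%. When peaks were divided by position, the shares were 31.3% (21.6 to 42.4) of 83 distal peaks against 35.4% of other distal peaks, and 4 of 18 proximal peaks (22.2%, 6.41 to 47.6) against 15.99%. Both intervals included the value for other peaks. GTGGGAA was found in 10.9% of members' peaks and 9.22% of the others.

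The same windows were scanned, in either orientation, for 6 further motifs: TGANTCA for AP-1, GGAATG for TEAD, TGTGGT for RUNX, CCGGAA for ETS, GGGCGG for SP and KLF factors, and CANNTG for E-boxes. TGANTCA was present in 17.8% (10.9 to 26.7) of members' peaks and 10.3% of others, but among distal peaks the shares were 20.5% (12.4 to 30.8) and 17.8%. GGGCGG was less frequent, with 15.8% (9.33 to 24.4) against 30.5%, and within proximal peaks it was 61.1% (35.7 to 82.7) against 51.9%. The ETS motif CCGGAA was found in 2.97% (0.617 to 8.44) against 10.5%, and within distal peaks in 3.61% (0.752 to 10.2) against 3.74%. For these 3 motifs the pooled interval excluded the value of other peaks, whereas the intervals within proximal and within distal peaks included it. CCGGAA was in 0 of 18 proximal peaks, for which the interval reaches 18.5%, while 17.2% of other proximal peaks had it.

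**Figure D5:**
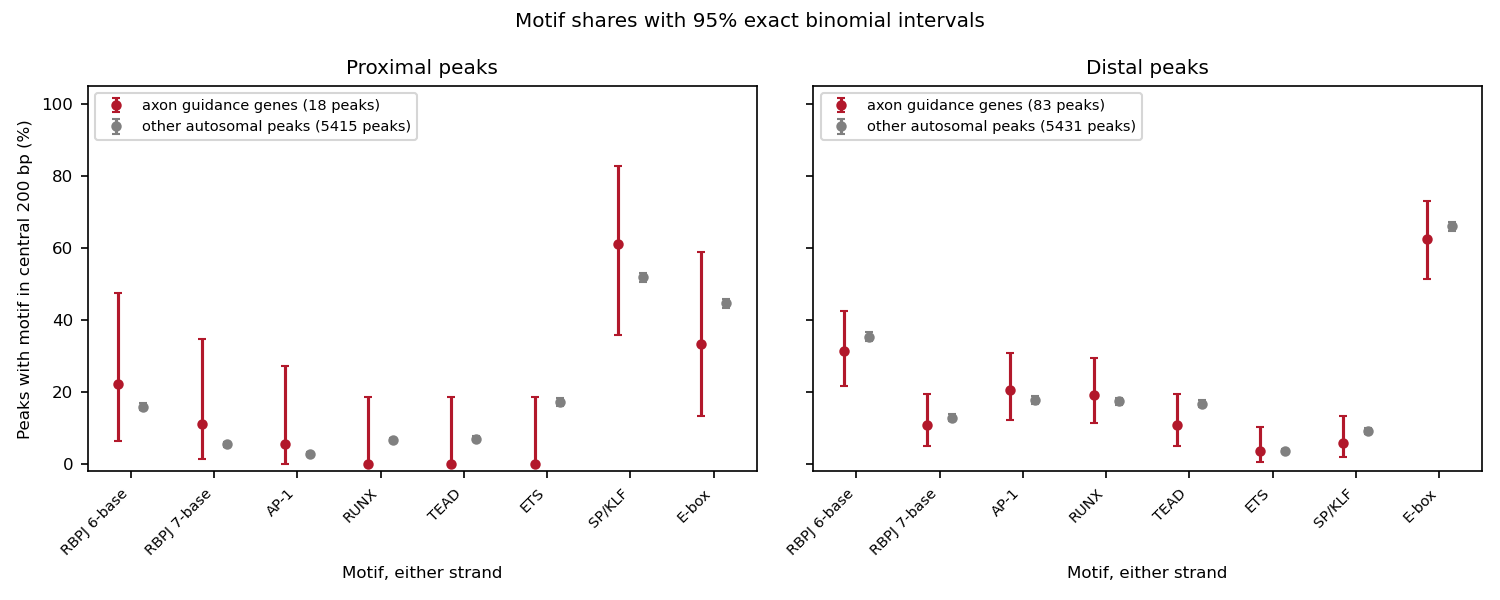
Percent of peaks with a motif in the central 200 bp (y axis) for 8 motifs (x axis), in proximal (left) and distal (right) peaks. Red points are peaks of axon guidance genes and grey points other autosomal peaks, with 95% exact binomial intervals. Each red interval covers the grey value beside it, and the red intervals are wide because 18 and 83 peaks stand behind them.

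Peaks of members were narrower, with a median width of 472 bp compared with 691 bp for other autosomal peaks. Among distal peaks the medians were 449 and 520 bp, and among proximal peaks 906 and 829 bp.

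Other axon guidance genes, namely further ligands and receptors and the proteins that carry their signals inside the cell, were counted from a list of 34 drawn up from general knowledge. A peak was present in 27 of them (79.4%), compared with 48.4% of all genes and with 59.3% if each had the share of its class of territory length. The list's median territory was 258 kb. A promoter peak was present in 20 (58.8%, beside 28.8% of all genes) and a gene body peak in 20 (58.8%, beside 26.3%), with 53 peaks in total. Median gene lengths were 119 kb for the list and 17.6 kb for all genes. Rgmb, a guidance molecule that binds the netrin receptor neogenin, had the most, with 5. Abl1, a kinase downstream of Robo, had 4, all in the gene body. Fyn, a kinase in semaphorin and netrin signalling, had 3, as did Srgap1, which links Robo to the cytoskeleton. Neo1, the gene for neogenin, and Dpysl2, a mediator of Sema3a signals, each had a promoter peak. None was listed for Dcc, the attractive netrin receptor, nor for Crmp1, Dpysl4, Dpysl5, Draxin, Ntng1 or Rhod.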

How the data were processed

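Per the study's methods, bowtie placed the reads on GRCm38, reads matching more than 3 places were dropped, which thins repeats, and duplicates were discarded. The authors ran 2 peak callers, MACS2 and PeakRanger, on each RBPJ replicate, joined peaks lying within 2 kb and retained those backed by 3 or more of the 4 call sets, outside blacklisted regions. Merging can move a centre away from the bound base. What the authors deposited is the first and last position of each peak in bp, without score or signal, and starts were read as counted from 1. Groups came from the sample titles. Depth was not analysed here.

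Territories and transcription starts were computed from 21938 protein-coding genes of GENCODE M21 (autosomes, X and Y) in Python 3.11.15, intervals with scipy 1.17.1, and sequence was read from the GRCm38 reference. Steps were tested on simulated data. Members and gene lists were chosen with earlier results of these data known. Named by rule were members with a promoter peak, the 10 with most peaks and those with none, and the 8 windows. Other members are given for completeness. Genes outside the families were named after their values were seen.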

Additional observations from a re-analysis of the deposited data

How the results depend on the processing

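The number of members with a peak was 36 to 39 with any overlap of at least 1 bp, domains alone, an extension of at most 100 kb, peaks of at most 5 kb, no chromosomes 4 and 7, or only peaks nearest to the member (added after seeing the data). With peaks of at least 500 bp it was 28. It moved to 17 with basal domains (26.2%, against 28.3% of all genes) and 24 with gene bodies alone. Members with a promoter peak numbered 22 by the nearest peak edge, and moved from 16 to 25 with a limit of 5 kb. Members with a gene body peak moved from 24 to 13 with peaks of at least 500 bp. The 101 peaks moved to 18, 43 and 49 with basal domains, gene bodies and peaks of at least 500 bp. The share with TGGGAA moved from 29.7% to 11.1% in basal domains, 18.4% in peaks of at least 500 bp, 65.3% over whole peaks, 10.9% for GTGGGAA and 16.8% in windows 5 kb away. The proximal share moved from 17.8% to 66.7% in basal domains and 32.7% with a limit of 5 kb. Density moved from 2.55 per Mb to 46.1 in basal domains, 4.02 in gene bodies, 4.72 with the 100 kb extension and 1.24 with peaks of at least 500 bp. Smaller territories and wider peaks leave fewer peaks by construction, and other causes were not tested. Leaving out either RBPJ replicate gave the same values (39 members, 16 and 24 with promoter and gene body peaks, 101 peaks, 29.7%, 17.8% and 2.55 per Mb), since the files are identical, which says nothing of stability. No paired analysis was possible because no value is given per replicate.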

Other observations

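The 300-base promoter windows of RefSeq (250 bases before to 50 after a start, GRCm38) had an entry for each of the 16 members with a promoter peak. The only Sema3a entry is at another start than its promoter peak and does not overlap it, so the bound promoter of Sema3a was not covered. TGGGAA in the 250 bases before the start was found for Epha7 and Plxnb2, while 21.6% of 32851 RefSeq promoters held it.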
